A study of Mus musculus with 14 samples.

Results

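The 48 genes described here are known to be induced by interferons and lie outside the OAS family of RNA sensors. They were taken as a named list and found by gene identifier among the 21761 genes of the exon count tables and the 18858 of the intron count tables. All 48 were listed in both kinds of table, and 47 had enough exon counts to be tested. Macrophages were grown from the bone marrow of FVB/Hsd mice and used on day 7 of differentiation. All of them carried a retroviral short hairpin RNA and had been selected with puromycin. The control libraries, scrambled 1 and scrambled 2, carry a scrambled hairpin, and the knockdown libraries carry the Wdr82 hairpins sh1137 and sh830, 1 library each. WDR82 is an adaptor protein shared by histone H3K4 methyltransferase complexes and by a phosphatase complex that acts on RNA polymerase II. The RNA was ribosomal RNA-depleted total RNA from cells labelled untreated, which received no lipopolysaccharide (LPS). The labels do not say whether libraries of a group came from separate cultures or animals. The p-values therefore speak for these libraries alone. In the main tests described below, each knockdown library is set beside 1 scrambled library. Those p-values measure how far the 2 differences disagree, with moderation across genes, and this disagreement includes the change of hairpin.

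Interferon alpha and beta bind the receptor pair IFNAR1 and IFNAR2, whose kinases activate the factor ISGF3. ISGF3, which contains STAT2 and IRF9, binds interferon-stimulated response elements in promoters, while interferon gamma acts through GAS elements. Macrophages hold many of these genes at a low tonic level without added interferon, and their products sense viral RNA, block virus replication, attach the ubiquitin-like protein ISG15 to other proteins and prepare peptides for MHC class I.

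Promoter sequence was at hand for 37 of the 48 genes, as the 250 bases before the annotated start in RefSeq (GRCm38.p6). The core of the response element was searched on both strands as GAAA, any 2 bases and GAAA again. The GAS core was searched as TTCNNNGAA, whose fixed letters read the same on both strands, and matches may overlap each other. The repeat of GAAA was present in 12 of the 37 promoters (32.4%), against 936 of 27025 genes with a promoter entry (3.46%). TTCNNNGAA was present in 7 of the 37 (18.9%), against 8.13% of all genes. Among genes that fell after the knockdown, as given below, 2 of 8 with a promoter entry held the GAAA repeat. Among tested genes that were not called, 9 of 27 did (33.3%). The largest falls, those of Ifi27l2a, Mx1 and Rtp4, had no promoter entry and are not among the 8. The 9 include Ifit3 and Rsad2, which came close to the threshold for a fall (edgeR adjusted p of 0.0502 and 0.065). Whether the repeat goes with a fall was not tested. The following windows show the match in capitals for genes that the results below turn on, written 5′ to 3′ on the strand of the gene. TTTC, any 2 bases and TTTC is the same motif on the other strand.
Isg15 (fell; chr4:156200871-156200900, minus strand): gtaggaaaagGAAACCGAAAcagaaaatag
Trim30a (fell; chr7:104465210-104465239, minus strand): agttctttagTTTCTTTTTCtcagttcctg
Gbp7 (rose; chr3:142530273-142530302, plus strand): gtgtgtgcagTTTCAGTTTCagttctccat
Rsad2 (not called; chr12:26456553-26456582, minus strand): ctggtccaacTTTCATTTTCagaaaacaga
Ifit3 (not called; chr19:34583397-34583426, plus strand): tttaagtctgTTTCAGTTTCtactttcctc
Bst2 (not called; chr8:71537577-71537606, minus strand): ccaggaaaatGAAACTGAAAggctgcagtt
Igtp (not called; chr11:58199512-58199541, plus strand): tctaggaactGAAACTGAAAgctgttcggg
In the window of Isg15, the motif overlapped 2 further matches, 6 bases to either side. The other promoter entry of Trim30a (chr7:104446076-104446375) held 0 matches. These letters were thus found in promoters of genes that fell, of a gene that rose and of genes that were not called. A match describes letters only, and no binding was measured here.

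Gene exons held 34787556 to 43372731 counts per library. Introns took 40.42% and 44.16% of exon plus intron counts in scrambled 1 and sh1137, against 14.61% and 15.23% in scrambled 2 and sh830. Libraries of the same group thus differed far more in this share than libraries on the same side of the split, and each group held 1 library of each kind. A term for this split was included in every main test. Wdr82 itself had 100.3 and 144.1 exon counts scaled per 1e6 library counts (CPM) in scrambled 1 and 2, and 25.1 and 40.7 CPM with sh1137 and sh830, a log2 fold change of -1.91 ± 0.094 (SE, edgeR adjusted p = 0.0022). Without the split term the adjusted p was 0.44 at -1.89. The 8 macrophage markers summed to 10380 and 12630 CPM in the scrambled libraries and to 8969 and 15560 CPM with sh1137 and sh830, and Cd68 and Fcgr1 among them fell. Summed markers of conventional dendritic cells were 11.3 and 8.25 CPM against 23.2 and 15.6 CPM (Itgax and Xcr1 rose). Those of T and NK cells were 1.79 and 1.66 CPM against 5.02 and 4.34 CPM (Lck rose, 2 of 7 genes at 0). Those of B cells were 3.38 and 5.49 CPM against 1.82 and 3.25 CPM (Cd79b fell, 2 of 5 at 0). The B cell markers did not move together. Ms4a1 had 0.17 and 0.050 CPM against 0.43 and 1.52 CPM, a log2 fold change of 2.90 (edgeR adjusted p = 0.084). Plasmacytoid dendritic cell markers, nearly all from Tcf4, summed to 117 to 162 CPM, and their defining gene Siglech was at or under 0.51 CPM in every library. Neutrophil markers were 12.03 and 6.30 CPM against 10.9 and 3.10 CPM. Fibroblast markers were 1.03 and 33.1 CPM in scrambled 1 and 2 and 1.87 and 110 CPM with sh1137 and sh830, and Col1a1 rose. The part of these marker differences in the results below was not tested, and in bulk RNA fewer cells of a type and less RNA per cell cannot be told apart.

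Across the 47 tested genes the exon counts were mostly lower after Wdr82 knockdown. Of these, 11 fell (Ifi27l2a, Mx1, Rtp4, Isg15, Cmpk2, Samd9l, Phf11d, Xaf1, Ifit2, Trim30a and Trim25) and 2 rose (Ifi27 and Gbp7). That is 23.4% and 4.26% of the set, beside 7.79% of all 13884 tested genes that fell and 6.06% that rose (edgeR's quasi-likelihood test, adjusted p under 0.05 by Benjamini-Hochberg over all features). The log2 fold change was negative in 38 of the 47, with a median of -0.27 against -0.01 over all genes. Among all genes, 1081 fell and 841 rose, and with scaling by library size alone 653 fell and 936 rose. Under that scaling 7 genes of the set fell and 2 rose, with a median of -0.20. Dropping the split term left 0 genes called in either direction by edgeR (0% of all genes), while 8 were lower and 2 higher at an unadjusted p under 0.05 (1.51% and 3.15% of all genes). DESeq2 in the same design called Ifi27l2a, Mx1, Rtp4 and Isg15 lower (0.166% of all genes) and 0 higher (1.1%), and with the split term it called 16 lower and 2 higher (6.71% and 5.43%). A split crossed over the pairs, scrambled 1 with sh830, left Ifi27l2a as the 1 lower call (0.0072% of all genes) and 0 higher calls (0.166%) in edgeR. With 1 library left out there was no room for the split term. Leaving out scrambled 1, edgeR called 2 genes of the set lower and 0 higher (0.104% and 0.431% of all genes tested then), and leaving out scrambled 2 it called 0 in either direction (0.00688% and 0.0895%). Without sh1137 it called 3 lower and 1 higher (0.113% and 1.34%), and without sh830 it called 1 lower and 0 higher (0.196% and 0.66%).

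**Figure D1:**
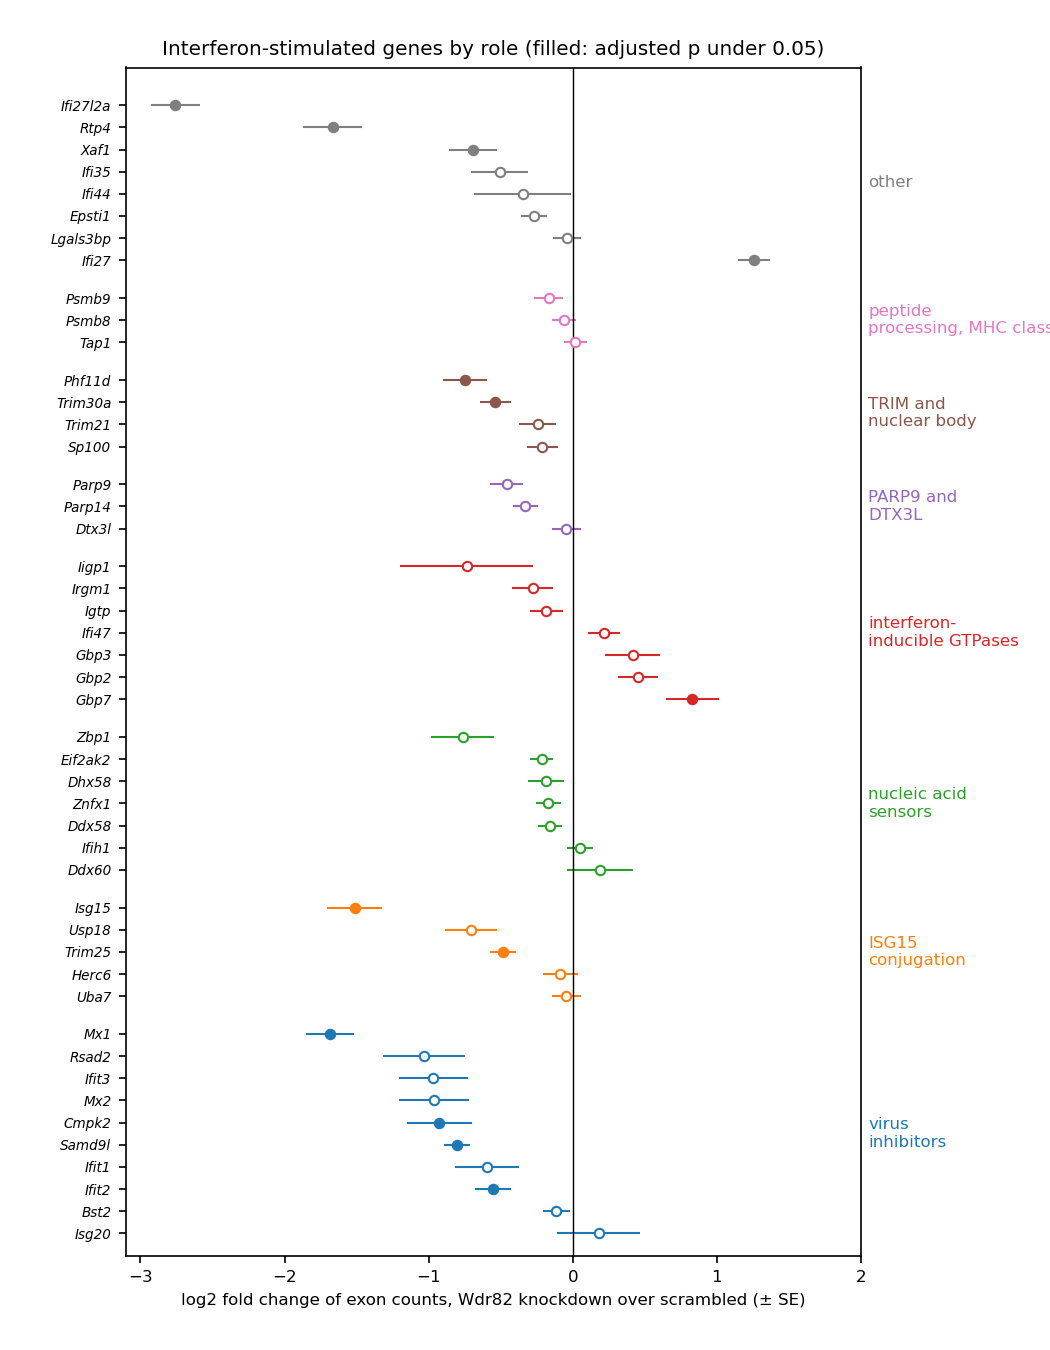
Log2 fold change of exon counts (x axis, knockdown over scrambled, bars are ± SE of the fit over 4 libraries) for the 47 tested genes, grouped by role (y axis). Filled points have an adjusted p under 0.05: 11 lie to the left of 0 and 2, Gbp7 and Ifi27, to the right.

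The inhibitors of virus entry, replication and release held 4 of the genes that fell, among 10 tested, and their median log2 fold change was -0.86. Mx1 (identifier 17857; mm9 chr16:97668642-97684513, minus strand) encodes a nuclear dynamin-like GTPase that blocks influenza virus transcription. Its exons had 36.5 and 26.8 CPM in scrambled 1 and 2, 13.7 CPM with sh1137 and 6.82 CPM with sh830. Both knockdown libraries lay below both scrambled libraries, with means of 31.6 ± 6.9 and 10.3 ± 4.9 CPM (SD, n = 2 each). Mx1 fell by 1.69 ± 0.17 on the log2 scale (edgeR adjusted p = 0.0082). Its relative Mx2 had 24.1, 15.7, 16.8 and 5.78 CPM in the same order, and sh1137 lay above scrambled 2. The log2 fold change of Mx2 was -0.96 ± 0.24 (edgeR adjusted p = 0.052), and it was -0.49 without scrambled 1, -0.23 without sh830 and -1.79 without sh1137.

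Samd9l (identifier 209086; mm9 chr6:3322257-3349571, minus strand), a restriction factor of poxviruses, had 160.8 and 191.2 CPM in scrambled 1 and 2, and 98.3 and 102.9 CPM with sh1137 and sh830. The groups did not overlap, and Samd9l fell by 0.80 ± 0.091 on the log2 scale (edgeR adjusted p = 0.011).

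Cmpk2 and Rsad2 are neighbours on chromosome 12 that are transcribed in opposite directions. Cmpk2 encodes a mitochondrial nucleotide kinase and Rsad2 encodes viperin, which makes a chain-terminating nucleotide from its product. Cmpk2 (identifier 22169; mm9 chr12:27154080-27164702, plus strand) had 32.6 and 52.9 CPM in scrambled 1 and 2, and 23.7 and 20.2 CPM with sh1137 and sh830. It fell by 0.93 ± 0.23 on the log2 scale, close to the threshold (edgeR adjusted p = 0.0499), and without scrambled 2 the log2 fold change was -0.54 and no call was made. Rsad2 had 38.3 and 55.6 CPM in the scrambled libraries and 28.5 and 17.8 CPM with sh1137 and sh830. Its groups did not overlap either, and its log2 fold change of -1.03 ± 0.29 had an edgeR adjusted p of 0.065.

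The IFIT proteins bind viral RNA, and Ifit1, Ifit2 and Ifit3 lie side by side on chromosome 19. Ifit2 (identifier 15958; mm9 chr19:34625184-34651024, plus strand) had 41.9 and 80.3 CPM in scrambled 1 and 2, and 32.9 and 47.5 CPM with sh1137 and sh830. The groups overlapped, since sh830 lay above scrambled 1, while each knockdown library lay below the scrambled library of like intron share. Ifit2 fell by 0.56 ± 0.13 on the log2 scale (edgeR adjusted p = 0.041), and the log2 fold change was -0.03 without scrambled 2, -0.37 without sh1137, -1.01 without scrambled 1 and -0.89 without sh830. Ifit3 had 11.8, 20.1, 8.11 and 7.70 CPM in scrambled 1, scrambled 2, sh1137 and sh830 with no overlap. Its log2 fold change of -0.97 ± 0.24 was larger than that of Ifit2 and just missed the threshold (edgeR adjusted p = 0.0502). Ifit1 had a log2 fold change of -0.60 ± 0.22 (edgeR adjusted p = 0.12). All exon bases of Ifit1 lie within introns on the opposite strand, so its counts are uncertain. Bst2, the virion tether of the cell surface, and Isg20, an RNA exonuclease, had log2 fold changes of -0.11 and 0.18.

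Ifitm3, which blocks fusion of virus envelopes, was listed at 0 exon and 0 intron counts in all 4 libraries. All of its exon bases lie inside a deposited non-gene region, extRNA_Ifitm6_TES (mm9 chr7:148194500-148203999), which held 60.7, 83.5, 66.0 and 90.5 CPM. The counts appear to leave out bases that 2 features share. Of 21 genes with at least 99% of their exon bases inside such a region, 20 were at 0 in all libraries (95.2%), as were 22 of 22 genes covered to that extent by exons on the opposite strand, against 20.7% of 18998 genes with under 1% shared. The 0 of Ifitm3 is therefore no measure of its level.

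In the ISG15 conjugation group 2 of 5 genes fell, and the median log2 fold change was -0.48. Isg15 (identifier 100038882; mm9 chr4:155573533-155574927, minus strand), the ubiquitin-like modifier itself, had 13.6 and 18.8 CPM in scrambled 1 and 2, and 5.604 and 5.592 CPM with sh1137 and sh830. The knockdown libraries were nearly equal and lay below both scrambled libraries. Isg15 fell by 1.51 ± 0.19 on the log2 scale (edgeR adjusted p = 0.013). Its promoter holds the run of overlapping GAAA repeats shown above. Usp18, the protease that removes ISG15 and dampens receptor signalling, had 34.6, 37.6, 26.8 and 18.1 CPM in scrambled 1, scrambled 2, sh1137 and sh830. Its groups did not overlap, and its log2 fold change was -0.71 ± 0.18 (edgeR adjusted p = 0.054). The activating enzyme Uba7 and the ligase Herc6 had log2 fold changes of -0.05 and -0.09. Of the exon bases of Herc6, 48.4% lie within introns on the opposite strand, so its counts are uncertain.

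Trim25, a ubiquitin ligase that acts on RIG-I, fell although its groups overlapped. Trim25 (identifier 217069; mm9 chr11:88860717-88881607, plus strand) had 282 and 153.3 CPM in scrambled 1 and 2, and 211.8 and 104.1 CPM with sh1137 and sh830. The difference within each group was larger than that between groups. The groups of Uba7 and Herc6 overlapped too. With the split term Trim25 fell by 0.48 ± 0.089 on the log2 scale (edgeR adjusted p = 0.026). The value was 0.03 without scrambled 1, -0.02 without sh830, -1.07 without sh1137 and -0.80 without scrambled 2.

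**Figure D2:**
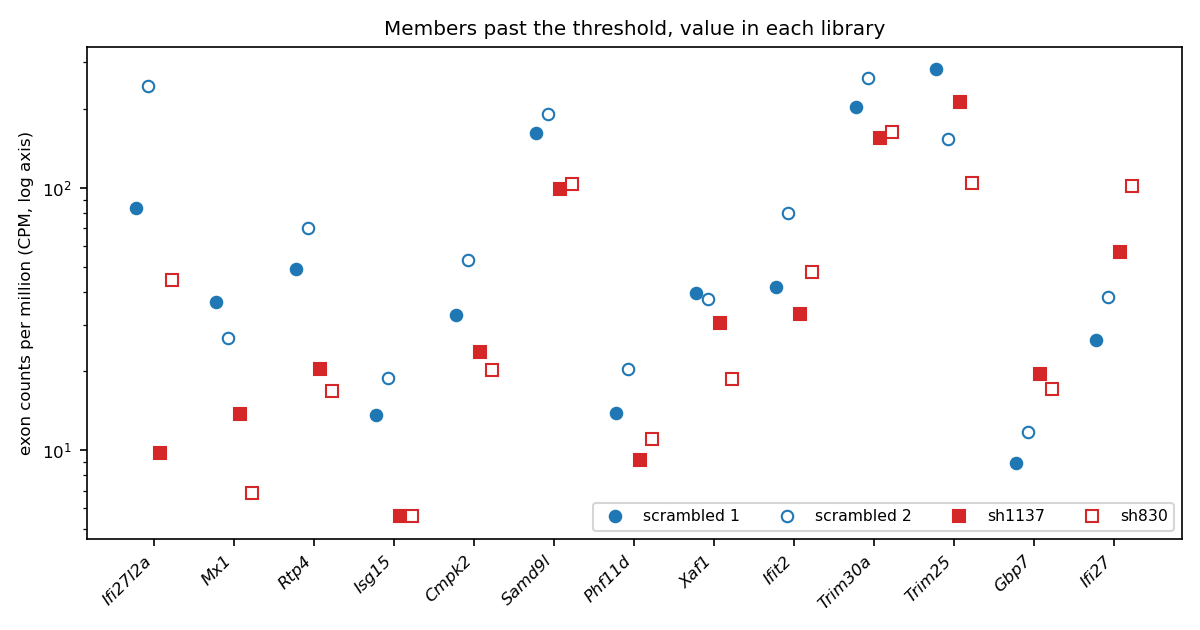
Exon CPM (y axis, log scale) of the 13 genes past the threshold (x axis), with 1 point for each of the 4 libraries (circles scrambled, squares knockdown). In Ifit2 and Trim25 a knockdown library lies above a scrambled library; in the other 9 genes that fell both squares lie below both circles, and in Gbp7 and Ifi27 both lie above.

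None of the 7 nucleic acid sensors passed the test, and their median log2 fold change was -0.17. Zbp1, which senses left-handed nucleic acid, had the smallest p of the group. It had 12.6, 16.5, 9.53 and 7.58 CPM in scrambled 1, scrambled 2, sh1137 and sh830 without overlap, and a log2 fold change of -0.76 ± 0.22 (edgeR adjusted p = 0.070). The cytosolic RNA helicases Ddx58 (RIG-I), Ifih1 (MDA5) and Dhx58 (LGP2) had log2 fold changes of -0.16, 0.05 and -0.18, and the kinase gene Eif2ak2 (PKR) had -0.22. Ddx60, a helicase linked to RIG-I signalling, had 38.6 and 31.0 CPM in scrambled 1 and 2, and 61.0 and 25.3 CPM with sh1137 and sh830. The sh1137 library lay above both scrambled libraries and the sh830 library below both, and the log2 fold change of Ddx60 was 0.19 ± 0.23.

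The interferon-inducible GTPases were the group with a median above 0, at 0.21, and 1 of 7 rose. Gbp7 (identifier 229900; mm9 chr3:142193302-142213047, plus strand) belongs to the guanylate-binding proteins, which coat vacuoles of intracellular pathogens. It had 8.95 and 11.7 CPM in scrambled 1 and 2, and 19.5 and 17.1 CPM with sh1137 and sh830. Both knockdown libraries lay above both scrambled libraries, and Gbp7 rose by 0.83 ± 0.19 on the log2 scale (edgeR adjusted p = 0.040). Gbp3 lay in the same order, at 5.58, 7.12, 7.95 and 8.91 CPM, with a log2 fold change of 0.42 ± 0.19 (edgeR adjusted p = 0.19). Gbp2 had 9.39, 16.1, 13.9 and 20.5 CPM with overlapping groups and a log2 fold change of 0.45 ± 0.14 (edgeR adjusted p = 0.083). The value for Gbp2 was 0.085 without scrambled 1, 0.13 without sh830, 0.68 without sh1137 and 0.90 without scrambled 2. These genes have close paralogs, and all exon bases of Gbp3 and Gbp7 lie within introns of another annotated gene on the same strand, so their counts are uncertain. The immunity-related GTPases Iigp1, Irgm1, Igtp and Ifi47 ranged from -0.74 to 0.21, and none passed the test. For Ifi47 and Igtp, 93.4% and 88.9% of exon bases lie within introns on the same strand, so their counts are uncertain as well. Iigp1 was scarcely detected, at 0.47 to 1.15 CPM.

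Irgm1, which guards macrophages against mycobacteria, had a log2 fold change of -0.28 ± 0.14 (edgeR adjusted p = 0.23), with 68.2 and 86.1 CPM in scrambled 1 and 2 and 67.8 and 59.0 CPM with sh1137 and sh830. A deposited non-gene region named for its start begins 152 bp from it (mm9 chr11:48685000-48695999). This region had 5.09 and 2.96 CPM in scrambled 1 and 2, and 15.3 and 7.82 CPM with sh1137 and sh830. It rose by 1.496 ± 0.19 on the log2 scale (edgeR adjusted p = 0.013), while the exons of Irgm1 did not pass in either direction. The authors chose these regions on a hairpin comparison, so the direction of this rise is no independent evidence. A region next to Usp18 had a log2 fold change of 0.23 (edgeR adjusted p = 0.68). Another, 626 bp from Sp100 but named for the end of Sp140, had 0.95 (edgeR adjusted p = 0.20). The latter held 47, 30, 125 and 38 counts in scrambled 1, scrambled 2, sh1137 and sh830.

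Of the TRIM and nuclear body proteins, 2 of 4 fell, with a median log2 fold change of -0.39. Trim30a (identifier 20128; mm9 chr7:111557540-111613707, minus strand) dampens NF-kappaB signalling. It had 201.9 and 261.6 CPM in scrambled 1 and 2, and 154.7 and 162.2 CPM with sh1137 and sh830, without overlap. Trim30a fell by 0.54 ± 0.11 on the log2 scale (edgeR adjusted p = 0.031), and without scrambled 2 the log2 fold change was -0.32. Phf11d (identifier 219132; mm9 chr14:59966244-59984327, minus strand) is a PHD finger gene that shares 14.5% of its exon bases with another gene on the same strand. It had 13.9 and 20.4 CPM in scrambled 1 and 2, and 9.13 and 11.04 CPM with sh1137 and sh830. Phf11d fell by 0.75 ± 0.15 on the log2 scale (edgeR adjusted p = 0.033), and without scrambled 2 the log2 fold change was -0.43. The antibody receptor Trim21 and the nuclear body gene Sp100 had log2 fold changes of -0.24 and -0.21, and the knockdown libraries of both lay below the scrambled ones.

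Among Parp9, Parp14 and Dtx3l none passed over exons. Parp9 and Dtx3l encode partners in an ADP-ribosylating ubiquitin ligase complex and lie on opposite strands with 8.15% and 5.97% of their exon bases shared. Parp9 had 80.7, 95.4, 66.7 and 61.3 CPM in scrambled 1, scrambled 2, sh1137 and sh830 without overlap, and a log2 fold change of -0.46 ± 0.11 (edgeR adjusted p = 0.052). Parp14 had 369.4 and 277 CPM in the scrambled libraries and 292.7 and 221 CPM with sh1137 and sh830, a log2 fold change of -0.33 ± 0.086 with overlapping groups (edgeR adjusted p = 0.057). The value for Parp14 was -0.12 without scrambled 1, -0.13 without sh830 and -0.56 without sh1137. Dtx3l had -0.05. The immunoproteasome genes Psmb8 and Psmb9 and the peptide transporter gene Tap1, which feed MHC class I, had log2 fold changes of -0.06, -0.17 and 0.02, and all had overlapping groups. Psmb9, with the smallest p of these, had 26.3, 37.5, 22.6 and 34.6 CPM in scrambled 1, scrambled 2, sh1137 and sh830. Its log2 fold change was 0.15 without scrambled 2 and 0.11 without sh1137.

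The remaining 8 interferon-induced genes held the largest fall and the largest rise of the set, and the pair shares a locus. Ifi27l2a (identifier 76933; mm9 chr12:104672083-104681890, minus strand) encodes a small membrane protein. It had 83.2 and 244.6 CPM in scrambled 1 and 2, and 9.71 and 44.6 CPM with sh1137 and sh830. Both knockdown libraries lay below both scrambled libraries, though the scrambled libraries themselves differed widely. Ifi27l2a fell by 2.76 ± 0.17 on the log2 scale (edgeR adjusted p = 0.0039), and the log2 fold change was -1.60 without scrambled 2 and -4.08 without sh830. Ifi27 (identifier 52668; mm9 chr12:104672399-104678455, plus strand) lies within the span of Ifi27l2a on the opposite strand. It had 26.3 and 38.3 CPM in scrambled 1 and 2, and 56.6 and 101.5 CPM with sh1137 and sh830. The order of the groups was the reverse of that of Ifi27l2a, and Ifi27 rose by 1.26 ± 0.11 on the log2 scale (edgeR adjusted p = 0.0064). Without sh830 the log2 fold change of Ifi27 was 0.82. Shared bases made up 11.7% of the exons of Ifi27l2a and 9.78% of those of Ifi27, and 90.2% of the exon bases of Ifi27 lie in introns of Ifi27l2a. The tables appear to ignore strand, so RNA from either strand outside the shared bases was counted to the annotated feature.

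Rtp4 (identifier 67775; mm9 chr16:23610005-23614308, plus strand), a chaperone for receptors on their way to the membrane, had 48.7 and 70.0 CPM in scrambled 1 and 2, and 20.3 and 16.7 CPM with sh1137 and sh830. The groups lay well apart, and Rtp4 fell by 1.67 ± 0.20 on the log2 scale (edgeR adjusted p = 0.012). In DESeq2 with the group term alone it had the smallest adjusted p of the set, 0.00099. Xaf1 (identifier 327959; mm9 chr11:72115131-72127235, plus strand), an antagonist of the apoptosis inhibitor XIAP, had 39.7 and 37.5 CPM in the scrambled libraries and 30.4 and 18.7 CPM with sh1137 and sh830. It fell by 0.69 ± 0.17 on the log2 scale (edgeR adjusted p = 0.048), and the log2 fold change was -0.33 without sh830 and -1.06 without sh1137. Ifi35, Ifi44, Epsti1 and Lgals3bp had log2 fold changes of -0.51 to -0.04 and overlapping groups. Ifi35 shares 77.2% of its exon bases with a gene on the opposite strand.

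Per kb of exon, Ifi27l2a, Lgals3bp, Psmb8 and Bst2 had the highest means over the scrambled libraries, at 185.8, 162.5, 119.5 and 77.5 CPM per kb. The order of the first 2 was not the same in both libraries, since Ifi27l2a had 94.32 and 277.3 CPM per kb in scrambled 1 and 2, where Lgals3bp had 182.9 and 142.1. The lowest means were those of Iigp1, Ifi44, Isg20, Gbp7 and Gbp3, at 0.26 to 2.22 CPM per kb. Of the 4 most abundant, Ifi27l2a fell, and Lgals3bp, Psmb8 and Bst2 had log2 fold changes between -0.11 and -0.04. Of the 5 least abundant, Gbp7 rose and the others did not pass.

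Compared without a model, both knockdown libraries lay below both scrambled libraries in 22 of the 47 genes, which is 46.8% of the set beside 15.7% of all tested genes. The reverse order was found in Gbp3, Gbp7 and Ifi27, beside 15.7% of all genes, and 22 genes overlapped. Within the pairs of like intron share, 32 of 47 were lower in both pairs (68.1%, beside 39.5% of all genes), 6 were higher in both (beside 34.9% of all genes) and 9 had opposite signs. With 2 libraries a group the smallest p of an exact permutation test is 0.33, so this order was not tested gene by gene.

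The pairs differed in size. The median log2 difference of the sh1137 library from scrambled 1 was -0.18, and that of the sh830 library from scrambled 2 was -0.40, against -0.04 and 0.00 over all genes. The sh830 difference was the lower in 40 of the 47 genes, and the same count was not made over all genes. Rsad2 had -0.42 with sh1137 and -1.64 with sh830, Ifi44 had 0.14 and -0.87, and Ddx60 had 0.66 and -0.29. Ifi27l2a went the other way, with -3.09 and -2.46. Scrambled 1 in turn lay below scrambled 2 by a median of 0.25 over the set (0.00 over all genes), so the pairs also started from different levels. With 1 library for each hairpin, the hairpin and the library pair cannot be told apart.

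**Figure D3:**
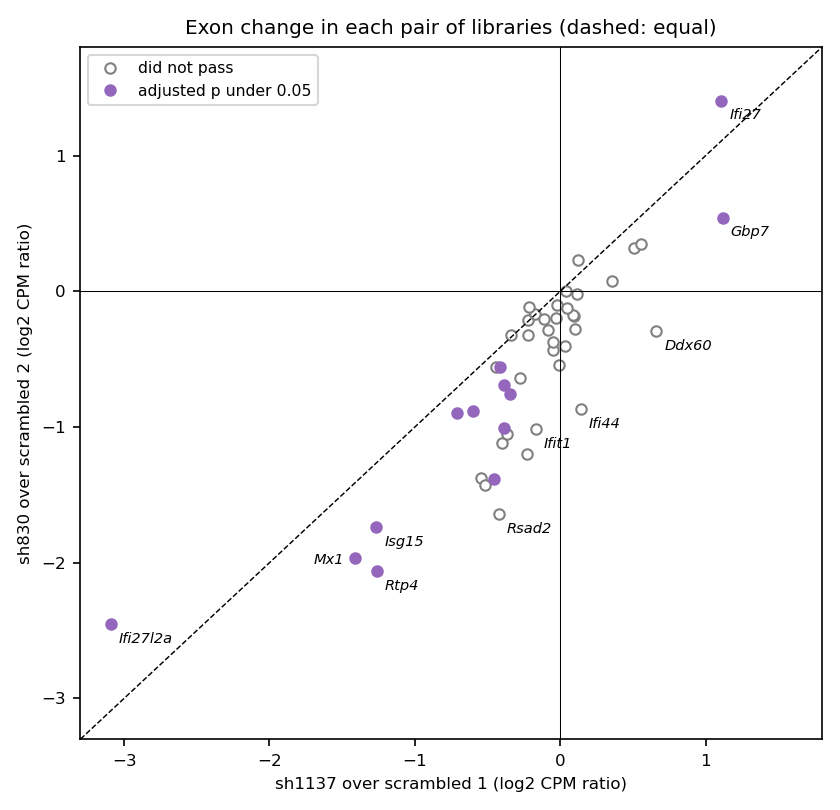
Log2 CPM ratio of sh1137 over scrambled 1 (x axis) against sh830 over scrambled 2 (y axis) for the 47 tested genes, with equal change dashed. Filled points passed the test; 40 points lie below the dashed line, and 32 lie below 0 on both axes.

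Introns are removed from mature RNA, so intron counts in total RNA weigh newly made transcripts more than exon counts do. Of 40 genes with enough intron counts, 12 fell and 0 rose, which is 30% of those tested beside 3.93% of all 12405 genes that fell and 5.97% that rose. The median intron log2 fold change was -0.40 against -0.01 over all genes, and 35 of 40 values were negative. Both knockdown libraries lay below both scrambled libraries in 22 of 40 genes, beside 14.1% of all genes, and above them in 0, beside 17.1%. Without the split term edgeR called 0 of the set over introns (0% of all genes), while 8 were lower and 0 higher at an unadjusted p under 0.05 (1.14% and 4.56% of all genes). DESeq2 in that design called 2 lower and 0 higher (0.0645% and 1.27%). Of the 8 genes without a test, Ifi47, Ifit1, Igtp, Gbp7, Gbp3 and Ifi27 had all their intron bases inside introns of another gene and 0 counts, Ifitm3 lies inside the region named above, and Isg15 had 3, 7, 4 and 0 counts. Of 260 genes whose introns lie at least 99% inside introns on the opposite strand, 259 were at 0 (99.6%), against 11.6% of those with under 1% shared.

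Of the 10 genes that fell over exons and could be tested over introns, 8 also fell over introns. Mx1 had 72.2 and 89.5 intron CPM in scrambled 1 and 2, and 25.9 and 17.4 CPM with sh1137 and sh830, and fell by 1.87 ± 0.20 on the log2 scale (edgeR adjusted p = 0.0055). Rtp4 fell by 1.31, Phf11d by 1.14, Xaf1 by 0.70, Trim30a by 0.68 and Trim25 by 0.60 log2 units. Of the intron bases of Phf11d, 64.4% lie within introns of another annotated gene on the same strand, so its intron counts are uncertain. The introns of Trim25, unlike its exons, kept both knockdown libraries (239.8 and 161.6 CPM) below both scrambled libraries (334.7 and 267.5 CPM). Cmpk2 and Ifit2 did not pass, at -0.63 and -0.10. Of the genes not called over exons, Mx2 had 86.8 and 105.6 intron CPM in the scrambled libraries and 52.4 and 44.2 CPM in the knockdown ones, and its introns fell by 0.98 log2 units (edgeR adjusted p = 0.012). Introns of Parp9 and Parp14 fell by 0.49 log2 units each, from 110 and 98.6 to 83.5 and 65.2 CPM and from 159 and 177.4 to 124.8 and 114.6 CPM.

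Exon and intron change differed in 4 of the 40 genes by the interaction test, where 2.44% of all genes were lower and 2.1% higher over introns than over exons. Samd9l had 56.3 and 62.4 intron CPM in scrambled 1 and 2, and 29.1 and 19.1 CPM with sh1137 and sh830, a fall of 1.29 log2 units. That was 0.51 ± 0.12 lower than over its exons (edgeR adjusted p = 0.0019). Lgals3bp had 28.2 and 38.2 intron CPM against 20.6 and 23.5 CPM, a fall of 0.57 log2 units, where its exons had -0.04 (difference -0.56 ± 0.12, edgeR adjusted p = 0.00042). Its exon counts were 396.4 and 308.1 CPM in scrambled 1 and 2, and 408.9 and 282.5 CPM with sh1137 and sh830. Ifih1 had 80.4, 87.1, 80.1 and 57.6 intron CPM and 64.8, 68.1, 70.3 and 67.2 exon CPM in scrambled 1, scrambled 2, sh1137 and sh830, and its introns lay 0.37 ± 0.12 below its exons (edgeR adjusted p = 0.049). Ifi27l2a was the reverse, with 27.6 and 50.9 intron CPM against 6.55 and 14.2 CPM. It fell by 1.96 log2 units over introns, 0.79 ± 0.15 less than over exons (edgeR adjusted p = 4.6e-05). Of its intron bases, 10.6% are exon bases of Ifi27, which rose, and 56.1% lie within introns on the opposite strand. The part of these overlaps in the difference was not tested. Without the split term, 0 of the 40 genes passed in edgeR in either direction (0% of all genes), and 0 were lower or higher at an unadjusted p under 0.05 (0.195% and 0.365% of all genes).

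**Figure D4:**
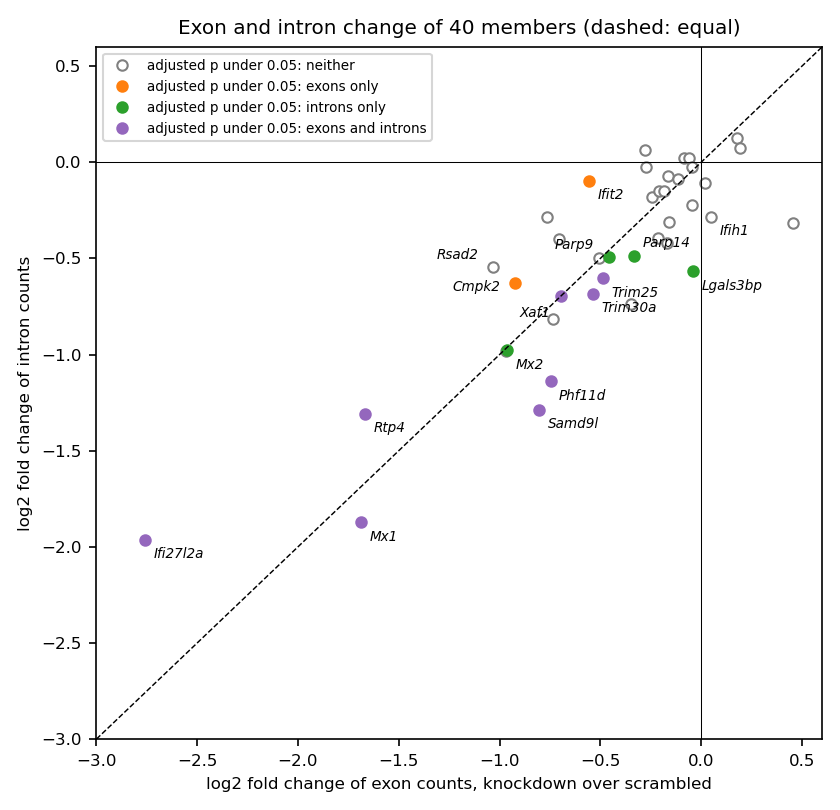
Log2 fold change of exon counts (x axis) against that of intron counts (y axis), knockdown over scrambled, for the 40 genes tested over both, with equal change dashed. Colours give the genes past the threshold over exons, introns or both; 8 passed over both, Ifi27l2a lies above the dashed line, and Samd9l and Lgals3bp lie below it.

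The rest of the interferon pathway was followed through 57 genes grouped by role, of which 46 were tested. Of these, 7 fell and 1 rose, beside 7.79% and 6.06% of all 13884 tested genes. The OAS family held 4 of the 7 falls. The groups of receptors, regulatory factors and upstream sensing had 1 fall each, among 12, 9 and 16 tested. The ligands were almost absent. Ifnb1 had 4, 2, 0 and 2 counts in scrambled 1, scrambled 2, sh1137 and sh830, and only Ifnk among 11 ligand genes had enough counts for a test. The receptor genes Ifnar1 and Ifnar2 had log2 fold changes of -0.06 ± 0.11 and -0.01 ± 0.081 (edgeR adjusted p of 0.71 and 0.96). Ifngr1, the interferon gamma receptor chain, rose by 0.41 ± 0.086 from 110.7 and 141.4 to 140.8 and 195 CPM with overlapping groups (edgeR adjusted p = 0.036).

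Of the subunits of ISGF3, Stat2 had 97.6 and 54.2 CPM in scrambled 1 and 2, and 71.8 and 36.6 CPM with sh1137 and sh830. Its groups overlapped, and with the split term it fell by 0.50 ± 0.088 log2 units (edgeR adjusted p = 0.024). Irf9 had 73.0, 90.5, 72.3 and 73.7 CPM and a log2 fold change of -0.16 ± 0.10 (edgeR adjusted p = 0.33). Irf7, the induced factor that amplifies interferon production, had 65.4 and 67.4 CPM in the scrambled libraries and 32.7 and 23.3 CPM with sh1137 and sh830. It fell by 1.26 ± 0.15 log2 units (edgeR adjusted p = 0.011), and the other 8 interferon regulatory factors did not pass.

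Upstream, Mb21d1 (cGAS), the cytosolic DNA sensor, had 44.6 and 36.1 CPM against 26.7 and 26.2 CPM and fell by 0.60 ± 0.11 log2 units (edgeR adjusted p = 0.028). None of the other 15 genes of upstream sensing passed. In the OAS family of RNA sensors, 4 of 8 genes fell, beside 7.79% of all tested genes. Oasl1 had 10.8 and 9.88 CPM in the scrambled libraries and 3.87 and 0.90 CPM with sh1137 and sh830, and fell by 2.38 ± 0.49 log2 units. Oas1g, Oas2 and Oas1a fell by 1.95, 1.51 and 0.84 log2 units (edgeR adjusted p from 0.0075 to 0.034 for the 4), and close paralogs make these counts uncertain. Without the split term, 0 of the 46 tested passed in edgeR in either direction (0% of all genes). At an unadjusted p under 0.05, 5 were lower and 0 higher (1.51% and 3.15% of all genes). In DESeq2 without the split term, 1 of the 46 passed as lower and 0 as higher (0.166% and 1.1% of all genes).

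**Figure D5:**
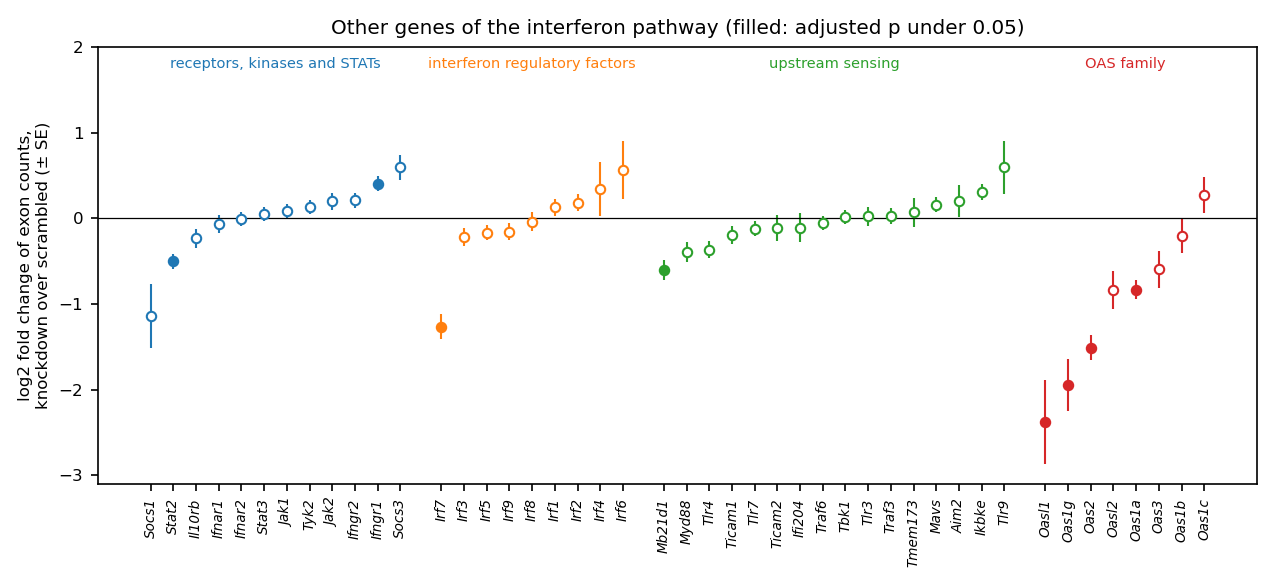
Log2 fold change of exon counts (y axis, knockdown over scrambled, bars are ± SE) for 45 other genes of the interferon pathway (x axis), grouped by role. Filled points have an adjusted p under 0.05: Stat2, Irf7, Mb21d1, Oasl1, Oas1g, Oas2 and Oas1a below 0, and Ifngr1 above.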

How the data were processed

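Ribosomal RNA-depleted total RNA of untreated macrophages was sequenced from strand-marked libraries, per the labels' protocols. Of 14 samples, the 4 with count tables were used, and the other 10 were not analysed here. The authors deposited raw read counts over the exons and, separately, the introns of each gene, with mm9 coordinates in an annotation that the authors deposited as other data. The mm9 build, SICER, Cuffdiff 2.1.1, Cufflinks 2.1.1 and TopHat 1.3.1 are listed in the submitters' processing notes. The counting tool and its use of strand are not given in the sources used here. Counts were therefore checked against overlapping features with bedtools 2.31.1.

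Exon counts of genes and non-gene regions were fitted under R 4.3.3 in edgeR 4.0.16, using gene TMM factors (0.935 to 1.077), filterByExpr (minimum count 10), a term for the intron-share split and a group term. P-values are Benjamini-Hochberg adjusted over all features, with a threshold of 0.05. "Fell" and "rose" refer to this test. The fit has 1 residual degree of freedom and leans on moderation across genes. The standard error is the log2 fold change divided by the root of F. Introns were fitted with factors of their own, and intron against exon change as an interaction. Alternatives used DESeq2 1.42.0, other terms, scalings and filters. A CPM of 0.05 was added before pair ratios.

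Genes named with every library's value were those past a threshold, the smallest p in each role group, and the 3 largest rises; near misses and neighbours were added after their values were seen. The gene set, role groups, marker lists and tests were chosen with earlier results of these data known. Of the pathway genes first listed, 2 are not reported here. Symbols were found for 21615 of 21761 identifiers.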

Additional observations from a re-analysis of the deposited data

How the results depend on the processing

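From the labels, no paired analysis was possible because they name the knockdown libraries by hairpin, without a replicate number to match the scrambled libraries. The main tests nonetheless paired scrambled 1 with sh1137 and scrambled 2 with sh830, through the split term, by their measured intron share. Every gene said to fall or rise rests on this pairing, which was taken from the data. The split term decided the counts of calls. Over exons, the 11 genes of the set that fell became 0 with the group term alone and 1 with the crossed split (scrambled 1 with sh830). They became 4 in DESeq2 with the group term alone, 7 with library size alone and 17 with no filter on low counts. Among all genes, 0, 1, 23, 653 and 1327 fell in these settings, of 17512 tested with no filter and 13884 in the others. The 2 that rose became 0, 0 and 0 in the first 3 settings and 1 with DESeq2 size factors. Among all genes, 0, 23 and 153 rose in the first 3 and 656 with DESeq2 size factors. With library size alone 936 rose, and with no filter 1051. Over introns, the 12 that fell became 0, 1 and 2 in the same first 3 settings. Without the split term, 0 of all 12405 genes fell over introns in edgeR and 8 in DESeq2. Among the other pathway genes, the 7 that fell over exons became 0, 0 and 1 in the first 3 settings. The 1 that rose became 0, 0 and 0, and 2 with library size alone or no filter. The 1 higher and 3 lower intron against exon differences became 0 and 0 with no split term. Wdr82 had -1.89 (adjusted p = 0.44 in edgeR) with the group term alone and -1.91 (0.12) with the crossed split. Leaving out a library, which leaves a lone sample in 1 group and no room for the split term, gave 0 to 3 exon falls, 0 to 1 exon rises, 0 to 2 intron falls, 0 to 3 pathway falls, 0 to 0 pathway rises and -2.28 to -1.58 for Wdr82. The fewest calls, 0 of each kind, came without scrambled 2. The lone sample is assumed to vary like the other group. The set's median ranged from -0.37 to -0.17 over exons and from -0.55 to -0.26 over introns across these settings. The 13 called genes kept their sign in all 11 settings, except Trim25, which ranged from -1.07 to 0.032 with a library left out and was above 0 without scrambled 1. Psmb9 ranged from -0.49 to 0.15 and was above 0 without scrambled 2 or sh1137. Lgals3bp was 0.028 with library size alone and ranged from -0.33 to 0.23, above 0 without scrambled 1 or sh830. The cause of these changes was not tested. In the main fits a gene was tested if it reached about 10 counts in at least 2 libraries, so some tested genes had fewer in the others.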
